A study of Mus musculus with 10 samples.

Results

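Windows of 100 kb in which embryonic stem cells (ESC) had no open site, while fibroblasts of embryos (MEF) and neural stem cells (NSC) each had 5 or more, numbered 1131 on the mouse autosomes (build mm9). They were chosen by counting the midpoints of open sites on a fixed grid, and the segment of chromosome 14 from 86000001 to 121000000 was left out by the rule. They made up 4.84% of the 23367 windows with a site in any list, and a further 1014 windows had no site at all. The rule used the ESC, NSC and MEF counts, so these counts describe the windows and are not findings. The list of epiblast stem cells (EpiSC) was not used by the rule, nor were the position of sites within windows, their width or the place of windows along chromosomes. Windows with 5 or more NSC and MEF sites and at least 1 ESC site, 18861 in number, served for comparison and are called ESC-positive windows below. The windows can be called closed in ESC only as far as lists of sites show it: a window without a listed ESC site was below the authors' threshold throughout, which is not a measurement of closed chromatin.

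The sites came from FAIRE-seq, in which formaldehyde-fixed chromatin is broken up and shaken with phenol and chloroform, so that DNA with few nucleosomes remains in the watery phase and can be sequenced. NSC, described as ES-derived neural progenitors, were kept in serum-free N2B27 medium with FGF2 and EGF at 10 ng/ml each. MEF came from E16.5 embryos and were kept in serum. Their source label speaks of NSC chromatin, but title and cell type both say fibroblasts, and the list is taken as that of MEF here. EpiSC were E3 cells grown with FGF2 at 5 ng/ml in medium conditioned by MEF, on a feeder layer of MEF from which they were separated 2 days before crosslinking, so that carried-over fibroblasts were possible. ESC were E14 cells without feeders, in the same N2B27 medium with LIF at 1000 U/ml, a MEK inhibitor at 1 uM and a GSK3 inhibitor at 3 uM, the culture known as the ground state. Each group had 2 samples, but a single list of sites stood for each cell type, so that no replicate error and no test of cell types against each other can be given, and read depth is unknown. The cultures are bulk samples, in which a site open in fewer cells and a site that is less open in every cell cannot be told apart. ESC and EpiSC stand for pluripotency before and after implantation of the embryo, whereas NSC and MEF have left pluripotency along separate lineages. Regulatory DNA that is bound by transcription factors loses nucleosomes, and the set of such sites differs between cell types.

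The ESC list was not the shortest. It had 441855 sites in all, NSC 555868, MEF 431911 and EpiSC 387312, and a window with any site held 18.7 ESC sites on average. When every list was shortened to the 387312 sites with the highest scores, 1091 windows met the rule. The same rule with EpiSC in the place of ESC was met by 387 windows, and by 318 with lists of equal length. Turned round, it was met by fewer windows: 56 windows had no NSC site and 5 or more in ESC and in EpiSC, and 15 had no MEF site and 5 or more in both pluripotent lists. With lists of equal length these were 179 and 27 windows. In the full lists, 1765 windows with a site in any list had no ESC site. The numbers without an NSC or a MEF site are not given, so the counts cannot be set against how often each list is empty. In the full lists, windows empty in both pluripotent lists with 5 or more sites in both somatic lists numbered 128, against 3 of the opposite kind. The NSC list is the longest and the EpiSC list the shortest, and this pair of counts is not given for lists of equal length.

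The windows without ESC sites were not dense in somatic sites. They held 5 to 86 NSC sites with a median of 10 (quartiles 7 and 22), against a median of 25 (14 and 36) in ESC-positive windows. MEF counts ran from 5 to 52 with a median of 12 (8 and 17), against 19 (13 and 26). Sites of NSC covered a median of 2.87% of the bases of a window, against 10.3% in ESC-positive windows, and MEF sites 3.57% against 7.02%. The smaller of the NSC and MEF counts was 10 or more in 478 windows (42.3%) and 20 or more in 112 (9.90%), against 78.9% and 38.2% of ESC-positive windows. In all, the 1131 windows contained 18553 NSC sites, or 3.48% of those on the windows examined, and 15494 MEF sites, or 3.69%.

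At the edges of the rule, 168 windows had exactly 5 sites in the smaller of the somatic counts, and 152 windows without ESC sites fell short with 4. Windows with 5 or more NSC and MEF sites were more numerous at 1 ESC site (1417) and at 2 (1201) than at 0. Those lone ESC sites were narrower than ESC sites in general, with a median width of 235 bp against 373 bp, and had a median score of 2.97 against 3.45. Of them 40.5% overlapped an NSC or MEF site, against 43.5% of all ESC sites. The windows thus stood at the end of a continuous range of ESC counts and were not set off from it by a gap.

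NSC counts had more windows at both low and high values than MEF counts had. In classes of 5 sites, 519 windows had 5 to 9 NSC sites, 187 had 10 to 14, 107 had 15 to 19, 64 had 20 to 24, 54 had 25 to 29, 56 had 30 to 34 and 49 had 35 to 39. In the same classes MEF counts gave 369, 357, 207, 105, 50, 21 and 13 windows. In all, 200 windows had 30 or more NSC sites and 43 had 30 or more MEF sites. NSC sites outnumbered MEF sites in 521 windows (46.1%) and MEF sites outnumbered NSC sites in 552 (48.8%). In ESC-positive windows these shares were 66.4% and 29.8%. NSC sites were at least 2 times as many as MEF sites in 222 windows (19.6%, against 19.1% of ESC-positive windows), with medians of 31.5 NSC and 11 MEF sites. MEF sites were at least 2 times as many as NSC sites in 186 (16.4%, against 8.02%), with medians of 7 NSC and 17 MEF sites. These groups had the same median of 3 EpiSC sites.

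**Figure D1:**
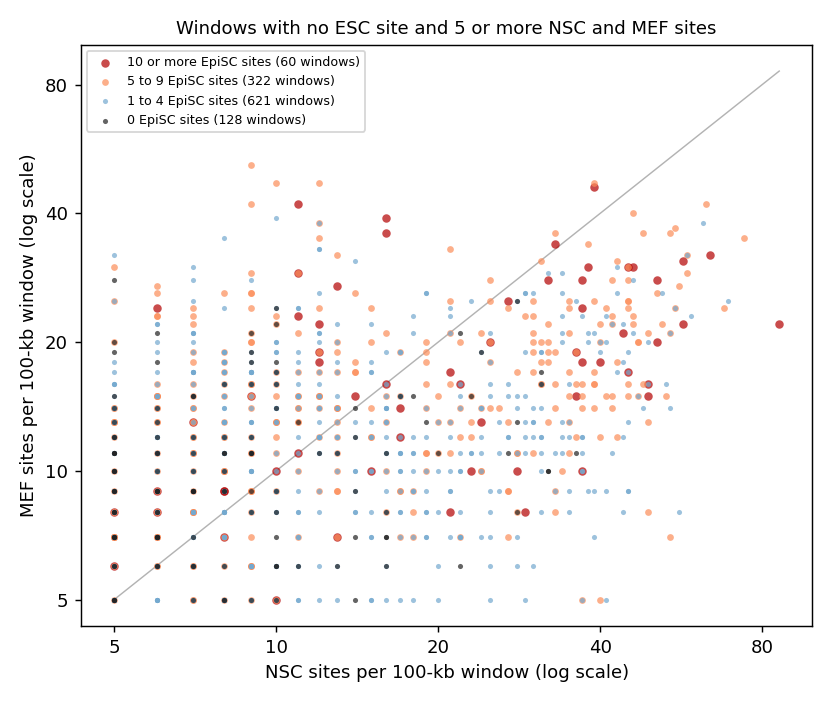
Each point is one of the 1131 windows without an ESC site, placed by its number of NSC sites (x axis) and MEF sites (y axis) per 100 kb, both on log scales; colour gives the number of EpiSC sites, points with equal counts lie on top of each other, and the grey line marks equal counts. NSC counts reach 86 and MEF counts 52, 200 windows have 30 or more NSC sites and 43 have 30 or more MEF sites, and the 60 windows with 10 or more EpiSC sites lie at low as well as high somatic counts.

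The 318 windows with 20 or more NSC sites lay in surroundings that were rich in NSC sites too. Their adjacent windows had medians of 33 NSC, 16 MEF, 5 EpiSC and 1 ESC sites, and the windows themselves 33 NSC, 16 MEF and 4.5 EpiSC sites. Windows with fewer NSC sites, 813 in number, had medians of 8 NSC, 11 MEF and 3 EpiSC sites, and the same medians in adjacent windows, with 1 ESC site. The split at 20 was made after the counts were seen. It was not made for the surroundings of ESC-positive windows, so likeness to neighbours is not shown to be particular to these windows. NSC counts of 20 or more were less common than in ESC-positive windows. Of the windows without ESC sites 10.4% had 20 to 29 NSC sites, against 24.3% of ESC-positive windows. At 30 or more the shares were 17.7% and 38.6%. NSC-rich windows made up 46.2% of the 26 windows on chromosome 13, 43.6% of the 94 on chromosome 16 and 42.6% of the 54 on chromosome 19, but 17.4% of the 23 on chromosome 14 and 17.5% of the 80 on chromosome 3.

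EpiSC, the list that the rule left aside, were sparse but seldom absent. The windows held 0 to 30 EpiSC sites with a median of 3 (quartiles 1 and 5), against a median of 18 (9 and 27) in ESC-positive windows. At least 1 EpiSC site was present in 1003 windows (88.7%, exact 95% interval 86.7 to 90.5), against 98.6% of ESC-positive windows. The share with 5 or more was 33.8% (382 windows, 31.0 to 36.6), against 88.7%, and the share with 10 or more was 5.31% (60 windows), against 73.7%. Of all windows with any site, 95.9% had at least 1 EpiSC site and 79.6% had 5 or more. Intervals cover counting error only, and neighbouring windows are not independent.

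EpiSC sites were also fewer within classes of the smaller somatic count. Where the smaller somatic count was 5 to 9, the median was 2 EpiSC sites in the 653 windows without ESC sites and 9 in ESC-positive windows. At 10 to 19 the medians were 4 and 18, at 20 to 29 they were 5 and 21, and at 30 or more they were 7 in 23 windows and 22.5 in ESC-positive ones. At each of these steps the windows without ESC sites had fewer EpiSC sites. Among windows with 5 or more NSC and MEF sites the EpiSC median followed the ESC count, from 3 at 0 ESC sites through 4 at 1, 5 at 2, 7 at 3 to 4 and 11 at 5 to 9 up to 26 at 20 or more. Windows without ESC sites and those with 1 had overlapping quartiles (1 and 5 against 2 and 7). Across the windows without ESC sites, Spearman's rho was 0.29 between NSC and EpiSC counts, 0.33 between MEF and EpiSC counts and 0.38 between NSC and MEF counts. In ESC-positive windows these were 0.30, 0.30 and 0.54. Windows share their libraries and local base composition, and these values only describe them.

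**Figure D2:**
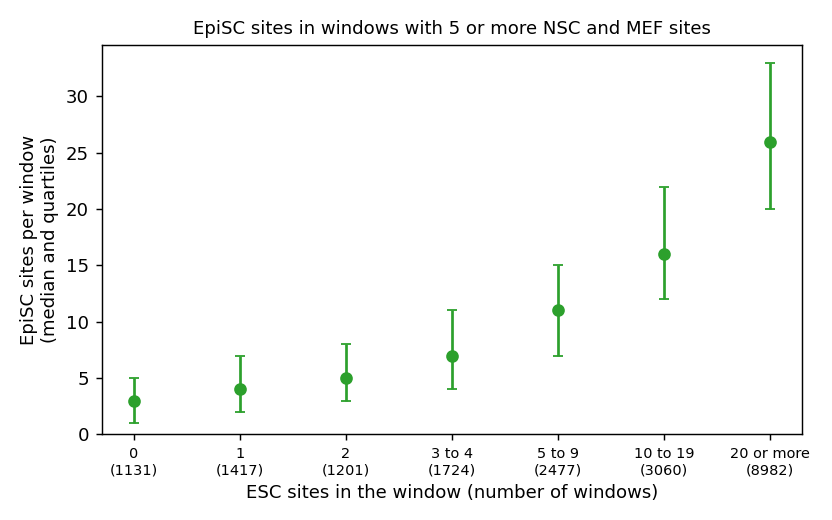
Number of EpiSC sites per window (median as point, quartiles as bars) in windows with 5 or more NSC and MEF sites, by the number of ESC sites in the window (x axis, number of windows in brackets). Windows without ESC sites, at the left, have a median of 3 EpiSC sites, and the median climbs without a break to 26 at 20 or more ESC sites.

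EpiSC counts differed between chromosomes. EpiSC sites are few on chromosomes 7, 12 and 18 in general, at 13.0, 10.7 and 10.7 per window with any site, against 26.8 on chromosome 11. On those 3 chromosomes 18.7% of the 198 windows without ESC sites had 5 or more EpiSC sites (13.5 to 24.8), and 37.0% of the 933 on the other autosomes (33.9 to 40.2). The 3 chromosomes were grouped for their low density in the same EpiSC list, so a lower share there follows partly from the choice. The highest shares were on chromosome 9 (16 of 26 windows, 61.5%) and chromosome 19 (31 of 54, 57.4%), the lowest on chromosome 12 (17.2%). Chromosome-wide EpiSC density and EpiSC sites in these windows went together across the 19 autosomes, with a rho of 0.71 between the mean numbers per window. Both come from the EpiSC list, and the chromosome means include these windows. What sets the chromosome-wide density was not tested.

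**Figure D3:**
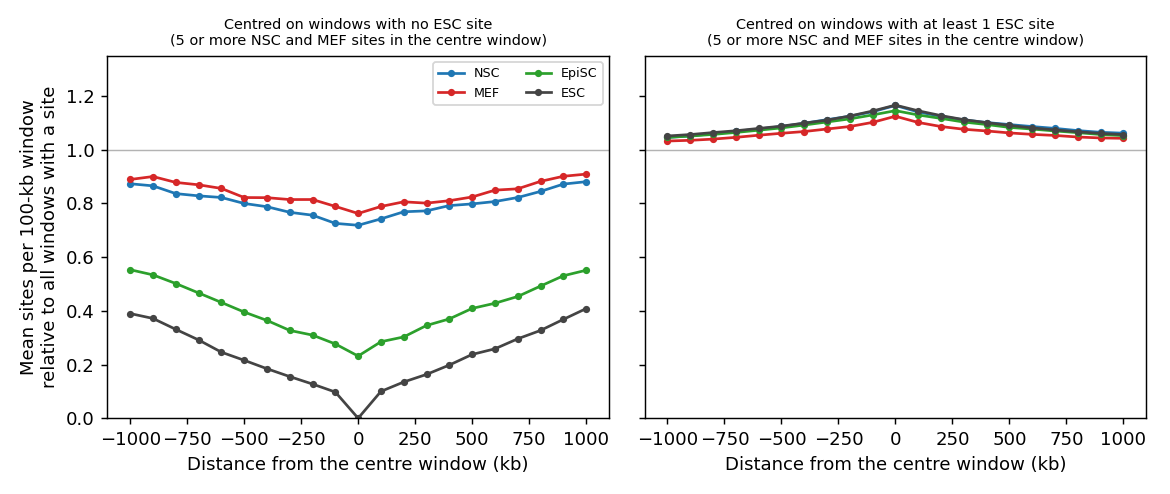
Mean number of NSC, MEF, EpiSC and ESC sites per 100-kb window, relative to the mean over all windows with a site (y axis), by distance in kb from the centre window (x axis), for windows without ESC sites (left) and ESC-positive windows (right). Around windows without ESC sites, ESC sites reach 0.40 of their mean 1 Mb away and EpiSC sites 0.55. NSC sites lie between 0.72 and 0.88 and MEF sites between 0.76 and 0.91, with the lowest values in the centre window, whose counts the rule used. Around ESC-positive windows all lists lie slightly above 1.

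The scarcity of ESC sites extended well beyond the windows. Adjacent windows had a median of 1 ESC site and a mean of 1.84, or 0.099 of the mean over all windows with a site, and 29.8% of them had none. At 500 kb the ESC mean was 0.23 of that level and at 1 Mb it was 0.40. EpiSC sites followed the same course from a higher base, at 0.28 in adjacent windows, 0.40 at 500 kb and 0.55 at 1 Mb. NSC and MEF sites stood nearer to their mean throughout, with 0.73 and 0.79 in adjacent windows and 0.88 and 0.90 at 1 Mb. The centre windows were chosen by their ESC, NSC and MEF counts, and neighbouring windows are not independent. The contrast between these 3 lists may thus partly carry over from the rule. Around ESC-positive windows the ESC mean was 1.14 in adjacent windows and 1.05 at 1 Mb.

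The stretch from the last ESC site before a window to the first one after it was 101 to 944 kb long, with a median of 198 kb (quartiles 158 and 260), where the rule itself sets a floor of about 100 kb. The 1131 windows fell into 847 such stretches, which covered 194 Mb together, and 25 stretches were longer than 500 kb. The longest, on chromosome 19 from 12899546 to 13843293, had 50 NSC and 25 MEF sites and 1 EpiSC site over 944 kb, and 1 of its windows met the rule. The next, on chromosome 16 from 53985740 to 54892191, had 52 NSC, 78 MEF and 28 EpiSC sites over 906 kb and contained 5 of the windows. A stretch on chromosome 16 from 27457636 to 28105257 was denser, with 229 NSC, 86 MEF and 30 EpiSC sites over 648 kb. One on the same chromosome from 61063928 to 61639438, with 34 NSC and 33 MEF sites, had no EpiSC site either. In 4 of the 1131 windows an ESC site centred outside reached across the edge.

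Of the windows, 442 (39.1%, 95% interval 36.2 to 42.0) shared an edge with another one, and 689 stood alone. Every window of a run is counted, so these are not independent and the interval is only a rough guide. No expected share was worked out for comparison. There were 181 runs of 2 or more: 130 of 2 windows, 29 of 3, 16 of 4, 5 of 5 and 1 of 6. The run of 6 lay on chromosome 16 from 27500001 to 28100000 and held 213 NSC, 82 MEF and 29 EpiSC sites in 600 kb. In the 500 kb before it were 106 NSC, 65 MEF, 28 EpiSC and 10 ESC sites, and in the 500 kb after it 204 NSC, 71 MEF, 57 EpiSC and 20 ESC sites. NSC and MEF sites thus ran on past both edges at which ESC sites began. The runs of 5 were on chromosome 3 from 70400001 to 70900000 with 36 NSC, 53 MEF and 6 EpiSC sites, on chromosome 11 from 38900001 to 39400000 with 44, 78 and 19, on chromosome 14 from 81400001 to 81900000 with 41, 38 and 20, and on chromosome 19 from 49400001 to 49900000 with 59, 97 and 53 and from 50800001 to 51300000 with 190, 79 and 21. In bins of 1 Mb, 564 of 2447 held at least 1 window of the kind, and 70 bins with 4 or more held 328 windows. Chromosome 19 had both bins with 7, from 19000001 to 20000000 and from 51000001 to 52000000, and the 2 Mb before the second had 6 windows in each Mb.

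**Figure D4:**
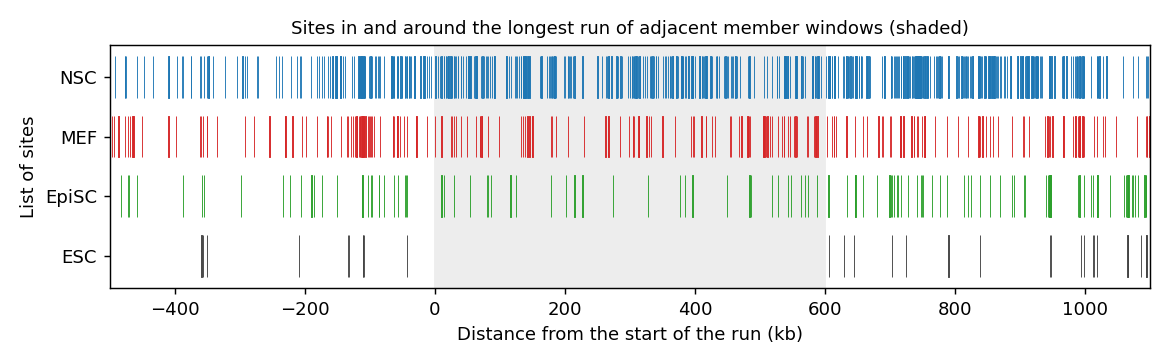
Sites of NSC, MEF, EpiSC and ESC (rows; each bar is a site, to scale) in the run of 6 adjacent windows on chromosome 16 (shaded, 600 kb) and 500 kb on either side, by distance from the start of the run in kb. The run has 213 NSC, 82 MEF and 29 EpiSC sites and no ESC site, while 10 ESC sites lie before it and 20 after it.

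The windows were spread unevenly over chromosomes. They made up 5.66% of all windows with 5 or more NSC and MEF sites, and the share by chromosome ranged from 1.01% on chromosome 8 (11 windows) to 10.9% on chromosome 16 (94), with 10.4% on chromosome 19 (54), 9.58% on chromosome 12 (93) and 8.48% on chromosome 15 (76). Chromosome 8 has dense ESC sites as a whole, with 26.7 per window with any site, against 15.7 on chromosome 16. Chromosome 19 had 20.7 ESC sites per window and a high share, and chromosome 13 had 17.0 and a share of 2.61%. The rho between ESC sites per window and the share was -0.49 across the 19 autosomes. Both come from the ESC list, and the share counts windows with 0 ESC sites, so they are tied by construction. What sets the share was not tested.

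Sites in the windows were narrower than in ESC-positive windows as a whole, and their scores, which the authors gave and which are compared only within a list, were higher. The median width of NSC sites was 281 bp, against 337 bp in ESC-positive windows, that of MEF sites 282 bp against 329 bp, and that of EpiSC sites 254 bp against 342 bp. Windows with 1 to 2 ESC sites were close, with 289.5 bp for NSC, 292 bp for MEF and 263 bp for EpiSC. Sites of 2 kb or more were rare, with 21 of NSC (0.113%, against 1.34%), 6 of MEF (0.0387%, against 0.302%) and 0 of the 4305 EpiSC sites (against 1.25%). The median NSC score was 4.84, against 3.85 in ESC-positive windows, the median MEF score 3.88 against 3.30, and the median EpiSC score 3.34 against 2.90. Among sites 250 to 350 bp wide the NSC median was 4.37, against 3.31, and the MEF median 3.61, against 2.83. Scores at this width were higher in windows without ESC sites at each level of the smaller somatic count, for instance 4.20 against 3.35 for NSC and 3.59 against 3.01 for MEF at counts of 5 to 9. They too were close in windows with 1 to 2 ESC sites, where the medians were 4.24 for NSC, 3.51 for MEF and 2.93 for EpiSC. How the score depends on local background is not stated by the sources.

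**Figure D5:**
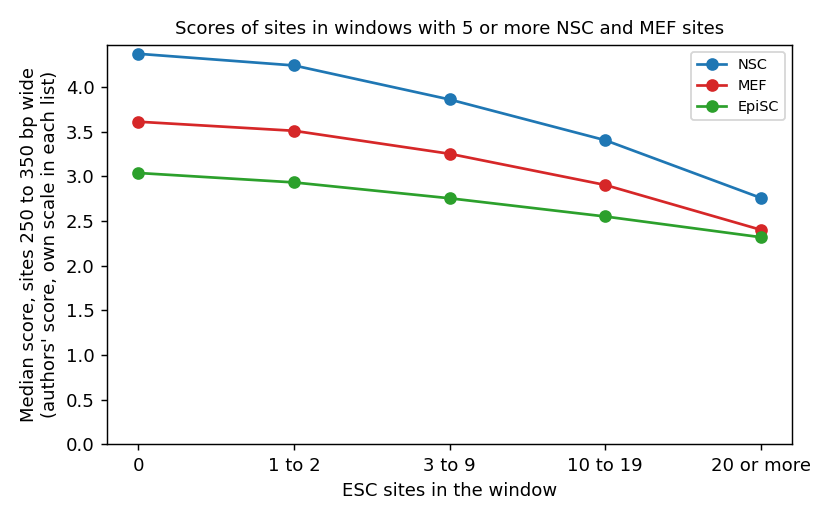
Median score of NSC, MEF and EpiSC sites that are 250 to 350 bp wide (y axis, the authors' score, on its own scale in each list) in windows with 5 or more NSC and MEF sites, by the number of ESC sites in the window (x axis). In windows without ESC sites the medians are 4.37 in NSC, 3.61 in MEF and 3.04 in EpiSC, and they are lower at every step towards 20 or more ESC sites, where they are 2.76, 2.40 and 2.32.

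NSC and MEF sites in these windows mostly did not overlap. An overlap of at least 1 bp with a MEF site was found for 3744 of the 18553 NSC sites (20.2%, 95% interval 19.6 to 20.8), against 31.9% in ESC-positive windows. Of MEF sites 24.1% overlapped NSC, against 42.9%. The share was also lower within classes of the smaller somatic count. At 5 to 9 the share of NSC sites was 14.6%, against 18.4%. At 20 to 29 it was 27.4%, against 34.2%. These classes fix only the smaller count. In the class of 5 to 9, MEF sites had a median width of 276 bp, against 297 bp. Overlap is bound to be rarer where sites cover fewer bases, and no adjustment was made for it. At a width of 250 to 350 bp the share of NSC sites was 18.7%, against 25.7%. A common site was found in 924 windows (81.7%), with a median of 2 per window and at most 30, against 96.6% of ESC-positive windows with a median of 7. Common sites were wider, with a median of 324 bp against 272 bp for NSC sites without MEF overlap, and had a higher median NSC score, 5.18 against 4.76. The same held in ESC-positive windows, with 427 bp against 308 bp and scores of 4.59 against 3.57. A wider site is more likely to share 1 bp with another, so the difference in width is partly built in.

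Most sites of EpiSC in the windows overlapped no site of either somatic type. Of the 4305 EpiSC sites, 19.8% overlapped NSC alone of the somatic lists, 12.1% MEF alone and 8.59% both, and 59.5% (58.0 to 60.9) overlapped neither. In ESC-positive windows the shares were 22.4%, 11.97%, 18.3% and 47.4%. Somatic sites covered fewer bases in the windows without ESC sites, with medians of 2.87% for NSC, against 10.3%, and 3.57% for MEF, against 7.02%. Overlap is bound to be rarer there, and no adjustment was made for it. In these windows the share of EpiSC sites that overlapped MEF was 20.7%, against 30.3% in ESC-positive windows, while 28.4% overlapped NSC, against 40.7%. EpiSC cultures had been grown on MEF feeders, and whether carried-over fibroblasts added to the EpiSC sites was not tested. Conversely, 6.55% of NSC sites and 5.76% of MEF sites overlapped EpiSC, against 28.4% and 28.8%. The windows had a mean of 3.81 EpiSC sites, against 18.8, and these shares are bound to be lower where EpiSC sites are few. A site common to NSC, MEF and EpiSC was found in 245 windows (21.7%), against 78.8% of ESC-positive windows, and the same limit applies. The overlap shares between pairs of these lists were higher where windows held 1 to 2 ESC sites, at 23.1% for NSC sites in MEF and 32.4% for EpiSC sites in NSC, and highest at 20 or more ESC sites, at 35.1% and 41.7%.

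The windows with the most sites in both somatic lists were named by a fixed rule. The first, on chromosome 12 from 15600001 to 15700000, had 63 NSC, 42 MEF and 5 EpiSC sites, and 28 of its NSC sites overlapped MEF. NSC sites covered 38.0% of its bases, MEF sites 17.9% and EpiSC sites 1.03%, and the neighbouring windows had 3 and 1 ESC sites. The second, on chromosome 10 from 102000001 to 102100000, had 46 NSC, 40 MEF and 5 EpiSC sites. On chromosome 2, from 141500001 to 141600000, there were 39 NSC, 47 MEF and 8 EpiSC sites inside an ESC-free stretch of 218 kb.

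A window on chromosome 9 from 79000001 to 79100000 had 39 NSC, 46 MEF and 11 EpiSC sites, with 3 ESC sites in the window on either side. On chromosome 12 from 51600001 to 51700000 there were 62 NSC, 38 MEF and 4 EpiSC sites, with 1 ESC site on either side, and on chromosome 10 from 37200001 to 37300000 there were 55 NSC, 37 MEF and 6 EpiSC sites, with 6 ESC sites on either side. In all 6 windows EpiSC sites covered at most 2.30% of the bases, against 11.96% or more for each somatic list. The 6 were chosen for high NSC and MEF counts, so this contrast follows largely from the choice.

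The highest-scoring site of each somatic list was named in these 6 windows. The highest-scoring NSC site of the window on chromosome 12 at 15.6 Mb lay from 15689786 to 15690160 and overlapped no MEF or EpiSC site; its score of 21.7 was 5.51 times the median of the NSC list. Its highest MEF site, from 15621675 to 15622054 with a score of 14.1, was also in NSC and EpiSC. On chromosome 2 the highest NSC site, from 141547154 to 141547683 (score 14.9), and the highest MEF site, from 141547242 to 141547642 (score 16.1), were the same place. In the other 5 windows the highest sites of the 2 lists lay apart. Of these 12 sites 1 overlapped an EpiSC site.

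EpiSC sites were most numerous on chromosome 15 from 90100001 to 90200000, where 30 of them stood beside 86 NSC and 22 MEF sites. This window lay at an edge, with 22 ESC sites in the window before it and 2 in the one after. NSC sites covered 43.6% of it, EpiSC sites 9.29% and MEF sites 8.02%. The next were on chromosome 19 and lay within 1 Mb of each other. From 49700001 to 49800000 there were 23 EpiSC, 11 NSC and 29 MEF sites in an ESC-free stretch of 563 kb, and 2 of the NSC sites overlapped MEF. From 50300001 to 50500000, in adjacent windows, the counts were 22 and 21 for EpiSC, 46 and 64 for NSC, and 30 and 32 for MEF.

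The 128 windows without EpiSC or ESC sites had 5 to 36 NSC sites and 5 to 28 MEF sites, with medians of 8 and 10. Chromosomes 7, 12 and 18, on which EpiSC sites are few, held 36 of them (28.1%), against 17.5% of all windows without ESC sites. This too follows partly from the choice of chromosomes with few EpiSC sites. The window with the largest smaller count lay on chromosome 17 from 38700001 to 38800000 and had 28 NSC and 25 MEF sites, of which 10 NSC sites overlapped MEF. Another on chromosome 17, from 16600001 to 16700000, had 22 NSC and 21 MEF sites in an ESC-free stretch of 304 kb. On chromosome 5 from 81000001 to 81100000 there were 24 NSC and 19 MEF sites, with an ESC-free stretch of 423 kb, and on chromosome 4 from 20300001 to 20400000 there were 31 NSC and 17 MEF sites. Their highest NSC scores were 13.4 to 22.4 and their highest MEF scores 10.2 to 11.4, so that high-scoring somatic sites occurred in windows without any listed site of ESC or EpiSC. Genes in these windows are not named, since no annotation of mm9 was at hand.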

How the data were processed

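FAIRE-seq libraries were amplified by PCR, size-selected on agarose gels and sequenced on an Illumina Genome Analyzer, per the labels' protocols. CASAVA 1.8 and build mm9 are named in the record, per the submitters' processing notes. Each deposited list gives sites with a score computed by the authors; its unit, the caller's settings, the use of the genomic DNA control and any pooling of replicates are not stated by the sources. The 6 other samples were not analysed here as files.

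Lists were read as 0-based intervals and coordinates are printed 1-based. Sites were counted by midpoint in windows of 100 kb on autosomes. Sites overlapped where they shared at least 1 bp. Shares carry exact (Clopper-Pearson) 95% intervals. The members, comparison groups and lists were chosen with earlier results of these data known. Windows were named as the 6 with the largest smaller one of the NSC and MEF counts, the 4 with the most EpiSC sites, the 4 without EpiSC sites and with the largest smaller count, and the 3 longest runs, with those that tie; in the first 6 the highest-scoring NSC and MEF site was named. Of the second group, 2 adjacent windows are given together. Other stretches, bins and the split of NSC counts were chosen after their values were seen. Planned analyses of genes, base composition and motifs were not run, because the reference at hand is of another build. Software was scipy 1.17.1, pandas 2.3.3 and numpy 2.4.6 under Python 3.11.15, with matplotlib 3.10.9 for figures. Counts were tested on simulated data and checked against bedtools 2.31.1, with no window different.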

Additional observations from a re-analysis of the deposited data

How the results depend on the processing

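All alternatives were listed in advance; of 51 values under them, 23 stayed (shares inside their 95% interval, numbers of windows within 1.5 times) and 28 moved. Values are given in the order number of windows, share with 1 or more EpiSC sites, share with 5 or more, share of NSC sites overlapping MEF and share next to another window, leaving out those that stayed. Windows of 50 kb gave 2522, 85.1%, 21.5% and 25.3%, and windows of 200 kb 234, 92.3%, 50%, 15.6% and 29.1%. A minimum of 3 sites gave shares of 86.2%, 28.8%, 19.5% and 46.6%, and a minimum of 10 gave 478 windows and 94.4%, 47.7%, 23.0% and 26.6%. Allowing 1 ESC site gave 2548 windows, 38.9% with 5 or more EpiSC sites, 21.7% and 64.3%. Keeping only the higher-scoring 50% of every list gave 1733 windows, 26.0% with 5 or more EpiSC sites, 18.8% and 48.6%. Adding the X chromosome, where 52 windows met the rule and EpiSC had no site, gave 84.8% with 1 or more EpiSC sites. Requiring an overlap of 50% of the shorter site gave 16.4% for NSC sites in MEF. The grid shifted by 50 kb (1116 windows), counting sites in every window they overlap (1128) and lists of equal length (1091) moved none of the 5 values. The cause of these moves was not tested, except that a looser or stricter count adds or removes windows by construction. No paired analysis was possible because only 1 list stood for a cell type, and leaving out a replicate was impossible too. Read depth is unknown, so numbers of sites are comparable only within that limit.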
